A study of Mus musculus with 5 samples.

Results

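MOL6b is 1 of 12 labels deposited with single oligodendrocyte (OL) lineage cells of the adult mouse corpus callosum, and it names a group of mature oligodendrocytes (MOLs) for which the prostaglandin synthase gene Ptgds is the marker. Its members are all cells that carry this label in the deposited table of cells, 430 of 2853. The cells came from the corpus callosum of healthy mice with Emx1::Cre and the reporter Sox10::Cre-LoxP-GFP-STOP-TdTom at postnatal day 60 (P60), of mixed CBA and C57BL/6 background, with tissue of 2 mice pooled before sorting. In these mice Emx1::Cre, active in progenitors of the dorsal forebrain, turns on TdTom in the OLs they give rise to, and OLs of ventral origin carry GFP, so that 1 TdTom+ library of 1901 cells (dorsally derived) and 1 GFP+ library of 952 cells (ventrally derived) were sequenced. Both reporters depend on Sox10 regulation, which limits the cells to the OL lineage. A further 3 samples, taken from spinal cord, were not used here.

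OLs wrap axons in myelin, the lipid-rich sheath that speeds conduction, and keep supporting the axon afterwards through metabolite transport and by clearing potassium released during firing. The lineage runs from OL progenitor cells (OPCs) through committed progenitors and newly formed OLs (COP/NFOL) and myelin-forming OLs (MFOL1, MFOL2) to MOLs. MOLs are divided by their transcripts, among them MOL2, known for Klk6, MOL1, known for immediate early genes, and MOL5/6, known for Ptgds. Ptgds codes for lipocalin-type prostaglandin D synthase, a secreted protein that makes prostaglandin D2 and also binds lipophilic molecules. Here MOL6b stands beside 2 further labels of the MOL5/6 kind, MOL6a and MOL4-5/6, and these are the labels it is set against below.

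The TdTom+ library gave 294 MOL6b cells with 884772 unique molecular identifiers (UMIs, each counting 1 captured transcript), and the GFP+ library gave 136 cells with 412423 UMIs. The median MOL6b cell held 2866.5 UMIs in the TdTom+ library (range 1849 to 6953) and 3027.5 among GFP+ cells (range 1787 to 5226), below the 3467 and 3420.5 of all other labels. The same cells had a median of 1324 and 1351.5 detected genes. With every cell thinned to 2400 UMIs the medians were 1165 and 1152 genes in MOL6b and 1186 and 1174 in the other labels, a smaller gap than the 1548 and 1540 genes of the other labels showed before thinning. The thinning kept 252 and 121 MOL6b cells and left out 42 and 15. Mitochondrial transcripts made up a median of 1.72% and 1.83% of a MOL6b cell's UMIs, against 1.30% and 1.33% in the other labels. Levels below are UMIs summed over the cells of a label and library and scaled to 1000000 UMIs (CPM). With 1 library per origin there is no replicate of an origin and no test was possible, so a log2 ratio is the mean of both libraries' own ratios with a pseudocount of 1 CPM. Its interval, at 95%, is exact for the UMIs summed over the libraries and covers counting error only, so that variation among mice, sorts or preparations is not in it. A gene is called higher or lower where the mean ratio was at least 1.5-fold, the interval left out equality and both libraries pointed the same way. Genes were compared where the mean of both sides was at least 50 CPM. A gene under 50 CPM on 1 side therefore passed through the other side alone, and the direction of its ratio was set by this filter. The labels came from clustering the same transcripts, so a difference between MOL6b and other labels describes the label and is not a test.

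MOL6b made up 15.5% of the TdTom+ cells (Clopper-Pearson interval 13.9% to 17.2%), and among GFP+ cells it made up 14.3% (12.1% to 16.7%). Among MOL cells only, the shares were 18.1% (16.3% to 20.1%) and 17.2% (14.6% to 20.01%), and among the 3 MOL5/6 labels they were 34.8% and 35.3%. The intervals of the libraries overlapped under each denominator. TdTom+ cells formed 68.4% of MOL6b (63.7% to 72.7%), and 66.3% of the cells of all other labels.

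Ptgds, the marker of the label, was present in nearly every MOL6b cell and at the level of the MOL5/6 labels. It stood at 15338 CPM (TdTom+) and 16452 CPM (GFP+), second to MOL6a with 18565 and 19084 CPM. MOL6b lay above MFOL1 (11203 and 13310 CPM), MOL1 (9356 and 13352 CPM) and MOL4-5/6 (10003 and 10280 CPM). Of these, MOL1 overlapped both MFOL1 and MOL4-5/6, and MFOL1 lay above MOL4-5/6. The lowest MOL labels were MOL2b at 1602 and 1306 CPM and MOL2a at 664 and 868 CPM, while OPCs held 406 and 408 CPM. The log2 ratio of MOL6b over all other cells was 1.10 (interval 1.06 to 1.11) and over MOL4-5/6 0.65 (0.61 to 0.67). Against MOL6a it was -0.24 (-0.28 to -0.23), under the 1.5-fold limit. The label was clustered on transcripts that include its marker, so the level of Ptgds describes the label and is no check of it. By that gene alone MOL6b sat between MOL6a and MOL4-5/6.

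**Figure D1:**
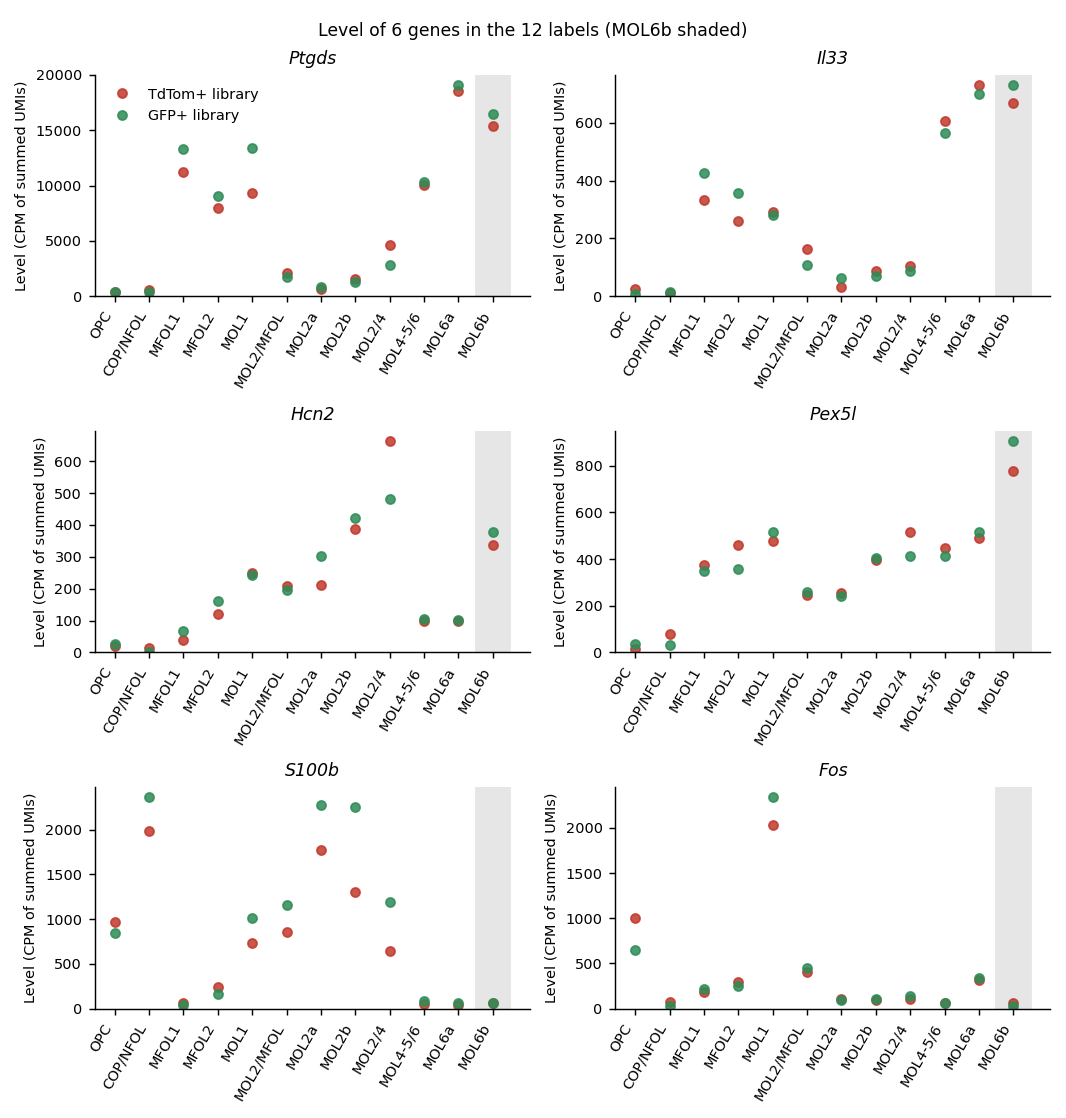
Level (CPM of summed UMIs, linear axes from 0) of 6 genes in the 12 labels, with 1 point per library (red TdTom+, green GFP+) and MOL6b shaded. Ptgds and Il33 are high in the MOL5/6 labels, Pex5l is highest in MOL6b (778.7 and 904 CPM), Hcn2 is higher in MOL6b than in MOL6a and MOL4-5/6, and Fos is high in MOL6a (317 and 337 CPM) but not in MOL6b (58.8 and 26.7 CPM).

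Within MOL6b, Ptgds differed widely from cell to cell. The median TdTom+ cell held 40 Ptgds UMIs with quartiles of 24 and 61 and a range from 0 to 155, and 2 of 294 cells had none. The median GFP+ cell held 45, with quartiles of 25.8 and 68.3 and a range from 1 to 149. The cells of MOL6a had medians of 52 and 49 UMIs, and those of MOL4-5/6 27 and 26.5. Scaled to each cell's total, the medians were 14034 and 14881 CPM in MOL6b, 15971 and 15644 CPM in MOL6a, and 8665 and 9380 CPM in MOL4-5/6. The spread of single cells overlapped widely between these labels, whereas the median MOL2b cell had 2 and 1 Ptgds UMIs.

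**Figure D2:**
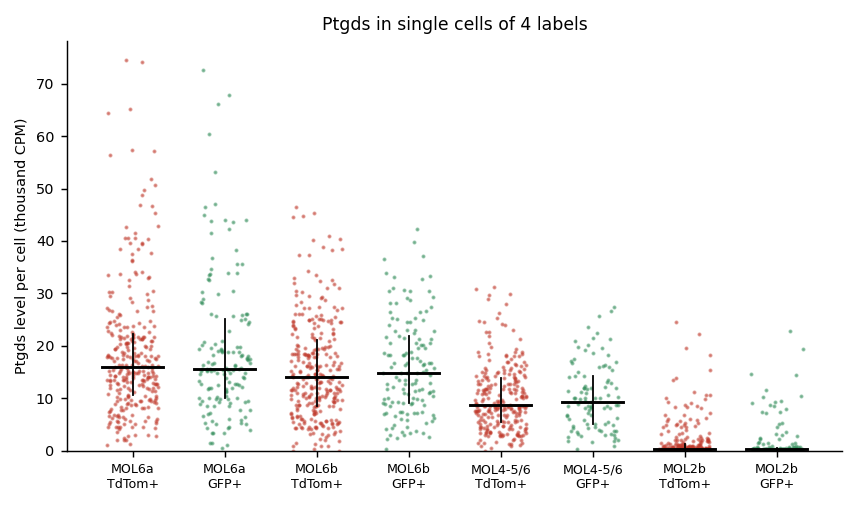
Ptgds level of single cells (CPM divided by 1000, linear axis) in 4 labels, each split by library; a point is a cell, the thick bar the median and the thin line the quartiles. MOL6a and MOL6b medians lie between 14034 and 15971 CPM, MOL4-5/6 medians are 8665 and 9380 CPM, and most MOL2b cells lie near 0.

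The MOL5/6 markers followed the label in part. Of 9 markers in the matrix, Ptgds included, 5 were called higher in MOL6b than in all other cells and 2 lower. Over all genes past a mean of 50 CPM, 51 of 2902 were called higher (1.76%) and 194 lower (6.69%), and the filter set the direction of 18 and 57 of these. In the GFP+ library alone 124 genes were called higher and 242 lower, and in the TdTom+ library alone 50 and 187. Il33, the alarmin cytokine that mature OLs keep in the nucleus, stood at 670.2 and 729.8 CPM in MOL6b, 731 and 699 CPM in MOL6a and 606 and 567 CPM in MOL4-5/6, so that MOL6b and MOL6a overlapped and MOL4-5/6 lay below both. Its log2 ratio to all other cells was 1.251 (1.09 to 1.31). Grm3, a metabotropic glutamate receptor, had 134.5 and 118.8 CPM (0.80, 0.62 to 1.12), and Jph4, a junctophilin that ties internal calcium stores to the cell membrane, had 462 and 395 CPM (0.85, 0.68 to 0.95). Qdpr, which recycles the cofactor tetrahydrobiopterin, was called at 0.64, although in the TdTom+ library alone it reached 0.55. The 2 lower markers were Apod, a lipid-binding lipocalin (-0.75), and Trf, the iron carrier transferrin (-0.64), while Car2, carbonic anhydrase (0.11), and Anln (-0.52) were not called.

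Klk6, S100b, Hopx and Anxa5, 4 of the 5 MOL2 markers, were called lower in MOL6b than in all other cells, beside 6.69% of all genes. The remaining marker Spock3 was not called. Of the 2 MOL2 markers above 50 CPM on both sides 1 was lower, beside 5.14% of all such genes. Klk6, a secreted serine protease, had 10 UMIs in all MOL6b cells, or 6.78 and 9.70 CPM, against 711.9 and 2235 CPM in MOL2/4, and its ratio to all other cells was the lowest of any gene past the filter (-4.70, -5.95 to -4.00). S100b, a calcium-binding protein, was at 67.8 and 65.5 CPM (-3.68), Hopx at 13.6 and 7.27 CPM (-3.36), and Anxa5, an annexin, at 22.6 and 19.4 CPM (-1.90). Spock3, a proteoglycan, stood at 137 and 204 CPM in MOL6b and a mean of 129.8 CPM in MOL6a, and its ratio of -0.54 to all other cells was not called. S100b was as low in MOL6a (43.7 and 66.9 CPM) and MOL4-5/6 (47.9 and 84.99 CPM). By mean level, Klk6 (5.02 and 11.4 CPM), Hopx (3.53 and 17.7 CPM) and Anxa5 (25.9 and 26.4 CPM) were also low in MOL6a and MOL4-5/6. These 4 genes thus separated the MOL5/6 labels from MOL2 and not MOL6b from its neighbours. Of 8 OPC genes 2 passed the filter, Ptprz1 at 3.39 and 9.70 CPM (-3.83) and Cspg5 at 11.3 and 9.70 CPM (-3.43). Both passed through the level in other cells, and with other MOL labels as the reference the ratio of Ptprz1 was 0.25 and that of Cspg5 -0.56. Of 9 COP/NFOL genes 3 passed, Enpp6, a choline-releasing enzyme of newly formed OLs, at 35.0 and 34.0 CPM (-1.69), the kinase Fyn (-1.08, but 0.11 with other MOL labels as the reference) and Tcf7l2, a transcription factor of Wnt signalling (0.08, not called). Klk6, Hopx, Anxa5, Ptprz1, Cspg5, Enpp6 and Fyn passed the filter through their level outside MOL6b and had to come out lower.

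Beside Ptgds and Il33, the highest ratios to all other cells belonged to Aebp1, Fam46a, Pex5l and Srgap1. Aebp1, a secreted carboxypeptidase-like protein, stood at 79.1 and 75.2 CPM in MOL6b and 22.4 and 29.9 CPM in all other cells (log2 ratio 1.54, 1.29 to 1.98). Fam46a, which extends the poly(A) tails of mRNAs, had 87.0 and 97.0 CPM against 36.2 and 31.8 CPM (1.41, 1.06 to 1.69). Pex5l had 778.7 and 904 CPM against 378 and 373 CPM (1.16, 1.02 to 1.22), and Srgap1, a GTPase-activating protein of Slit-Robo signalling, had 56.5 and 87.3 CPM against 31.4 and 30.3 CPM (1.16, 0.73 to 1.45). Aebp1 and Pex5l were higher in both MOL6b libraries than in either library of any other label. Ccp110, a centriolar protein, was at 393 and 502 CPM (1.01), Nbas, a tethering protein of transport between Golgi and endoplasmic reticulum, at 125 and 182 CPM (1.08), and Tmod1, which caps actin filaments, at 192 and 206 CPM (0.90). Fam13c (1.01), Spock1, a secreted proteoglycan (0.92), Usp2, a deubiquitinase (0.87), Jade1 (0.87) and Cerk, the ceramide kinase (0.83), completed the set. Aebp1, Fam46a, Srgap1, Fam13c, Spock1, Usp2, Jade1 and Cerk were under 50 CPM in all other cells and passed the filter through MOL6b alone, so they had to come out higher, whereas Pex5l, Nbas, Ccp110 and Tmod1 were above it on both sides. Cerk rested on the GFP+ library, with 0.48 in the TdTom+ library alone. Cntn2, an adhesion protein of the juxtaparanode beside the node of Ranvier, was at 755 and 817 CPM, and its ratio of 0.35 was not called.

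Against MOL6a, the label nearest to it by Ptgds, MOL6b had 66 of 2886 genes called higher (2.29%) and 267 lower (9.25%), with the direction of 21 and 54 set by the filter. In the GFP+ library alone the counts were 116 and 247, and in the TdTom+ library alone 75 and 283. The clearest difference on the higher side was Hcn2, which codes for a hyperpolarization-activated cation channel. Hcn2 stood at 337 and 378 CPM in MOL6b and at 97.3 and 100.4 CPM in MOL6a. The log2 ratio was 1.84 (1.56 to 2.11), from 454 UMIs in MOL6b and 146 in MOL6a, and it was 1.78 in the TdTom+ and 1.90 in the GFP+ library. Pex5l codes for TRIP8b, the auxiliary subunit that controls the trafficking and gating of HCN channels, and it was higher too, with 488 and 517 CPM in MOL6a and a ratio of 0.74 (0.58 to 0.86). Neither gene overlapped between the labels.

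Hcn2 was not particular to MOL6b across the whole lineage. It was higher in MOL2/4 (663 and 481 CPM) and MOL2b (387 and 424 CPM), while MOL2a (213 and 302 CPM) and MOL1 (249 and 242 CPM) came next below MOL6b. Within the MOL5/6 labels MOL6b alone was in that range, since MOL4-5/6 held 98.3 and 106 CPM. OPCs had 19.3 and 27.2 CPM. Thus MOL6b joined the high Ptgds and Il33 of MOL5/6 to an Hcn2 level nearer that of MOL2b.

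The share of cells with an Hcn2 UMI was also higher in MOL6b than in MOL6a and MOL4-5/6 and lower than in MOL2b. With all cells at 2400 UMIs, 45.04% of MOL6b cells (168 of 373, interval 39.9% to 50.3%) had at least 1, compared with 19.4% (15.7% to 23.6%) of MOL6a, 17.7% (13.6% to 22.5%) of MOL4-5/6 and 55.4% (50.5% to 60.2%) of MOL2b. OPCs, taken as the background for free RNA, were at 8.45% (3.17% to 17.5%, 6 of 71). Free RNA itself was not measured, and whether OPCs express the gene was not tested. Without thinning the shares were 45.3%, 23.9%, 19.7%, 69.0% and 7.23%, at median depths of 2866.5 and 3027.5 UMIs in MOL6b and 2909 and 2837 UMIs in OPCs. A Pex5l UMI was found in 80.7% of thinned MOL6b cells (76.3% to 84.6%), 63.6% of MOL6a, 59.0% of MOL4-5/6 and 4.22% of OPCs, and in 84.2% of MOL6b and 7.23% of OPCs without thinning. Among thinned MOL6b cells, Pex5l was detected in 85.2% of those with an Hcn2 UMI and 75% of the others in the TdTom+ library, and in 86.7% and 80.3% in the GFP+ library. Cells with both numbered 92 and 52, near the 85.7 and 50.1 that the product of the shares gives. The gap was not particular to MOL6b, since MOL6a had 74.5% and 63.1% (TdTom+) and 71.4% and 57.55% (GFP+). In MOL4-5/6 the shares were 50% and 62.2% (TdTom+) and 72.2% and 50.8% (GFP+).

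A potassium channel gene also stood higher in MOL6b than in MOL6a, and it was picked after its values were seen. Kcnj10, the Kir4.1 potassium channel with which OLs take up potassium along active axons, was at 402 and 497 CPM against 233 and 293 CPM in MOL6a (0.77, 0.59 to 0.97). Against MOL4-5/6 the Kcnj10 ratio was 0.57, just under the limit. Against all other cells Kcnj10 was not called, and no gene of the axon contact and support list that holds it was above 0.35.

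Other genes called higher than in MOL6a were Ap2a2, a clathrin adaptor subunit (0.98, 0.52 to 1.41), Eml1, a microtubule-binding protein (0.95, 0.54 to 1.28), and Usp2 (0.92). Ddx46, a splicing helicase (1.21), Cpe, carboxypeptidase E (1.03), Dexi (0.97) and Srgap1 (0.92) had means that came largely from the GFP+ library, since in the TdTom+ library alone they reached 0.17, 0.27, 0.30 and 0.40. Ap2a2, Usp2, Cpe, Dexi and Srgap1 were under 50 CPM in MOL6a, so the filter set their direction, while Hcn2, Pex5l, Kcnj10, Eml1 and Ddx46 were above it in both labels. Of the 49 named genes called against MOL6a, 12 were under 1.5-fold in the TdTom+ library alone and 4 in the GFP+ library alone.

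The lowest ratios against MOL6a belonged to Fos, Junb, Hspa1a, Itm2b, Ubb, Ahsa1, Ppib and Cd81. Fos, the activity-induced transcription factor, was at 58.8 and 26.7 CPM in MOL6b and 317 and 337 CPM in MOL6a (-3.01, -3.14 to -2.35). Junb was at 40.7 and 21.8 CPM against 161 and 186 CPM (-2.50), Egr1 at 23.7 and 41.2 CPM against 64.5 and 92.0 CPM (-1.27), and Jun at 267 and 221 CPM against 467 and 458 CPM (-0.93). Of the 12 genes of the immediate early list these 4 passed the filter. Fos, Junb and Egr1 passed it through their level in MOL6a, so their coming out lower was set by the filter, whereas Jun was above 50 CPM in both labels. MOL4-5/6 resembled MOL6b in this, with Fos at 65.6 and 63.7 CPM. At 2400 UMIs, a Fos UMI was found in 8.31% of MOL6b cells (5.72% to 11.6%), 10.5% of MOL4-5/6 and 33.4% of MOL6a (28.9% to 38.2%), with 8.84%, 13.4% and 37.0% before thinning. MOL6b had the lowest mean Fos level of the 12 labels.

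Hspa1a, Hsp90aa1 and Hsp90ab1 were the members of the heat shock list called lower than in MOL6a, and Hspa1a passed the filter through its level there. Hspa1a, the inducible HSP70 chaperone, was at 52.0 and 41.2 CPM against 186 and 157 CPM in MOL6a (-1.86, -2.28 to -1.46), Ubb, a polyubiquitin gene, at 677 and 584 CPM against 1891 and 1636 CPM (-1.48), and Hsp90aa1 at 678 and 594 CPM against 1472 and 1297 CPM (-1.12). Ahsa1, which stimulates the HSP90 ATPase (-1.45), and Ppib, a prolyl isomerase of the endoplasmic reticulum (-1.42), were also lower, and Hsp90ab1 was at -0.78. Canx, a chaperone of the endoplasmic reticulum, was not called (0.11). Itm2b, a membrane protein that restrains amyloid formation, was at 518 and 509 CPM against 1589 and 1607 CPM (-1.64), and the tetraspanin Cd81 at 800.2 and 759 CPM against 2114 and 2006 CPM (-1.40). Neither gene overlapped between the libraries of these labels, and each kept nearly the same ratio in both. Cldn11, the claudin that seals myelin lamellae, was at 2158 and 2039 CPM against 4762 and 4579 CPM (-1.15, -1.21 to -1.09), lower than in any label but OPCs by mean level. Apoe, the cholesterol-carrying lipoprotein, was at 1621 and 1894 CPM against 2660 and 2866 CPM (-0.66).

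**Figure D3:**
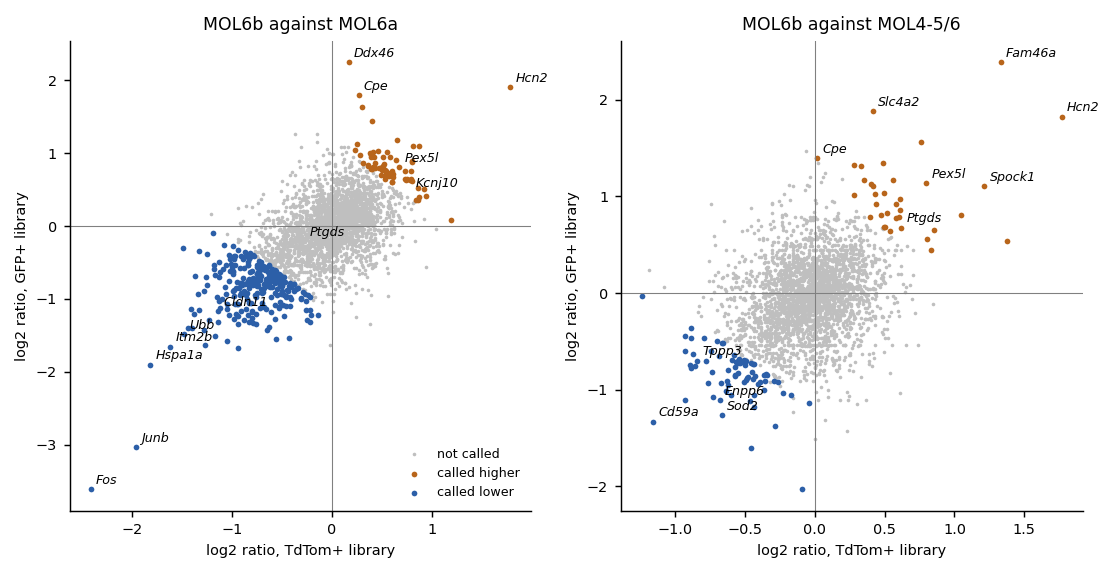
Log2 ratio of every gene past the filter in the TdTom+ library (horizontal) and the GFP+ library (vertical), MOL6b over MOL6a on the left and MOL6b over MOL4-5/6 on the right, with genes called higher in orange and lower in blue. Hcn2 lies at 1.78 and 1.90 against MOL6a and at 1.77 and 1.82 against MOL4-5/6, Fos is at the lower left against MOL6a, and Ddx46, Cpe and Slc4a2 lie near 0 on the TdTom+ axis.

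Against MOL4-5/6 the differences were fewer, with 35 of 2883 genes called higher (1.21%) and 73 lower (2.53%), of which the filter set the direction of 16 and 19. This comparison uses the same MOL6b cells as that against MOL6a, and the values are given side by side only. Fam46a had the highest ratio, with 34.0 and 17.7 CPM in MOL4-5/6 (1.86, 1.03 to 2.21; 0.67 against MOL6a). Hcn2 followed (1.79, 1.496 to 2.12, from 454 and 108 UMIs), with 1.77 and 1.82 in the TdTom+ and GFP+ libraries. Pex5l was 0.97 (0.74 to 1.06), Spock1 was 1.16 (0.61 against MOL6a), Aebp1 was 0.93 (0.67) and Fam13c was 0.96 (0.71). In single libraries Spock1 reached 0.41 against MOL6a (TdTom+), Aebp1 0.41 against MOL6a (GFP+) and Fam13c 0.54 against MOL4-5/6 (GFP+), each under the limit, and Aebp1 and Fam13c were under 50 CPM in MOL6a, which set their direction there too. Ybx3, a cold shock domain RNA-binding protein, reached 1.16, whereas Slc4a2, an anion exchanger, had a mean of 1.15 that was 0.42 in the TdTom+ library alone. Fam46a, Spock1, Aebp1, Fam13c and Ybx3 were under 50 CPM in MOL4-5/6 and passed through MOL6b alone, which set their direction. Serinc5, a marker of myelin-forming OLs, was at 131 and 155 CPM against 85.7 and 84.99 CPM (0.73, 0.33 to 1.08), while the other MFOL markers past the filter, Mog (-0.05), Opalin (-0.30) and Mal (-0.48), were not called.

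Lower than in MOL4-5/6 were Cd59a, a membrane inhibitor of complement, at 35.0 and 38.8 CPM against 79.4 and 99.2 CPM (-1.24, -1.76 to -0.70), Sod2, the mitochondrial superoxide dismutase (-0.96), Bcl7c, a chromatin remodelling subunit (-1.02), Scg5 (-0.90), Enpp6 (-0.89) and Anp32a (-0.84). Tppp3, a tubulin polymerization promoting protein, was at 484 and 427 CPM against 869.8 and 694 CPM (-0.77, -0.97 to -0.67). Ngdn (-1.06) and Dpy30 (-1.03) were -0.09 and -0.45 in the TdTom+ library alone. Cd59a, Bcl7c, Scg5, Enpp6 and Ngdn were under 50 CPM in MOL6b, so the filter set their direction, whereas Sod2, Anp32a, Tppp3 and Dpy30 were above it in both labels. Of the 28 named genes called in this comparison, 10 were under 1.5-fold in the TdTom+ library alone and 2 in the GFP+ library alone.

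The gene lists were counted over members past 50 CPM. Structural myelin genes had 13 of 13 past the filter, of which 0 were higher and 1 lower (Cldn11) against all other cells, near the 6.69% of all genes. Against MOL6a 4 of 13 were lower, beside 9.25% of all genes (Cldn11, Cnp at -0.69, Opalin at -0.63 and Mal at -0.62), and against MOL4-5/6 none was called. Lineage transcription factors had 0 of 12 called against all other cells, with Myrf, which drives myelin genes, at 0.25, Creb5 at 0.37 and Olig1 at -0.21.

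No gene of the lipid and axon support lists was called higher than in all other cells, near the 1.76% of all genes. Of all genes 6.69% were called lower there. Of 19 cholesterol genes 5 passed the filter, and 3 were lower against all other cells, Msmo1 (-0.996), the entry enzyme Hmgcs1 (-0.99) and Fdps (-0.80), and against MOL6a Fdps alone was called (-0.79). Fdps was under 50 CPM in MOL6b and passed the filter through the other side both times. Of the 4 cholesterol genes above 50 CPM on both sides, 2 were lower than in all other cells and 0 than in MOL6a, beside 5.14% and 8.07% of all such genes. The fatty acid and galactolipid list had 1 of 12 lower, the elongase Elovl1 (-0.72), near the 6.69% of all genes, and 1 of 12 against MOL6a, the ceramide synthase Cers2 (-0.71), near the 9.25% of all genes. Among axon contact and support genes 3 of 10 were lower than in all other cells, the lactate dehydrogenase subunit Ldhb at 17.0 and 31.5 CPM (-2.15), the connexin Gjb1 (-0.70) and the deacetylase Sirt2 (-0.61), while 4 of 10 were above 0. The direction of Ldhb was set by the filter, and without it 2 of 9 were lower, beside 5.14% of all genes above 50 CPM on both sides. Against MOL6a 1 of 9 was lower, Sirt2 (-0.64), and 1 was higher, Kcnj10 (0.77), beside 9.25% and 2.29% of all genes.

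The heat shock list had 2 of 9 lower against all other cells, Hspa1a (-1.42) and the HSP40 gene Dnajb1 (-1.41), 3 of 8 against MOL6a and 2 of 8 against MOL4-5/6. Hspa1a and Dnajb1 were under 50 CPM in MOL6b and had to come out lower, and of the 7 heat shock genes above 50 CPM on both sides 0, 2 and 1 were lower in these comparisons. Set beside the shares of all genes called lower (6.69%, 9.25% and 2.53%), the lysosomal list was near the background against all other cells, with 1 of 11 lower, Lamp1 (-0.74), and had 5 of 11 lower against MOL6a, where Lamp1 was -0.91, the protease gene Ctsl -0.89, Lamp2 -0.60, Ctsb -0.59 and Cd63 -1.13. Ctsl passed the filter through MOL6a alone, and 4 of the 10 lysosomal genes above 50 CPM in both labels were lower, beside 8.07% of all such genes. Antioxidant genes had 4 of 11 lower against all other cells, namely Prdx2 (-0.82), Gstm5 (-0.72), Sod2 (-0.66) and Prdx1 (-0.65). In the TdTom+ library alone Sod2 and Prdx1 were both at -0.55, under 1.5-fold. Tubulins and their regulators had 4 of 12 lower than in all other cells, Tppp3 (-1.11), Tuba1a (-1.08), Mapre2 (-0.74) and Tuba1b (-0.61, but -0.58 in the GFP+ library alone). Of the 66 named genes called against all other cells, 8 were under 1.5-fold in the TdTom+ library alone and 1 in the GFP+ library alone. In none of these 4 lists was a gene called higher in any of the 3 comparisons. This is near the 1.76%, 2.29% and 1.21% of all genes called higher against all other cells, MOL6a and MOL4-5/6.

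Mitochondrially encoded genes ran the other way without being called. All 7 past the filter were above 0 in each comparison, with medians of 0.38 against all other cells, 0.36 against MOL6a and 0.24 against MOL4-5/6, and mt-Nd2, a complex I subunit, was at 2045 and 2102 CPM (0.49). These genes are part of the mitochondrial share given above. Of nuclear genes of the respiratory chain, 1 of 74 was lower against all other cells (Atp5f1, -0.63), below the 6.69% of all genes, and 8 of 73 against MOL6a, near the 9.25% of all genes. Of 79 ribosomal protein genes 76 were above 0 against all other cells, with a median of 0.26 and none called, while against MOL4-5/6 the median was 0.02.

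**Figure D4:**
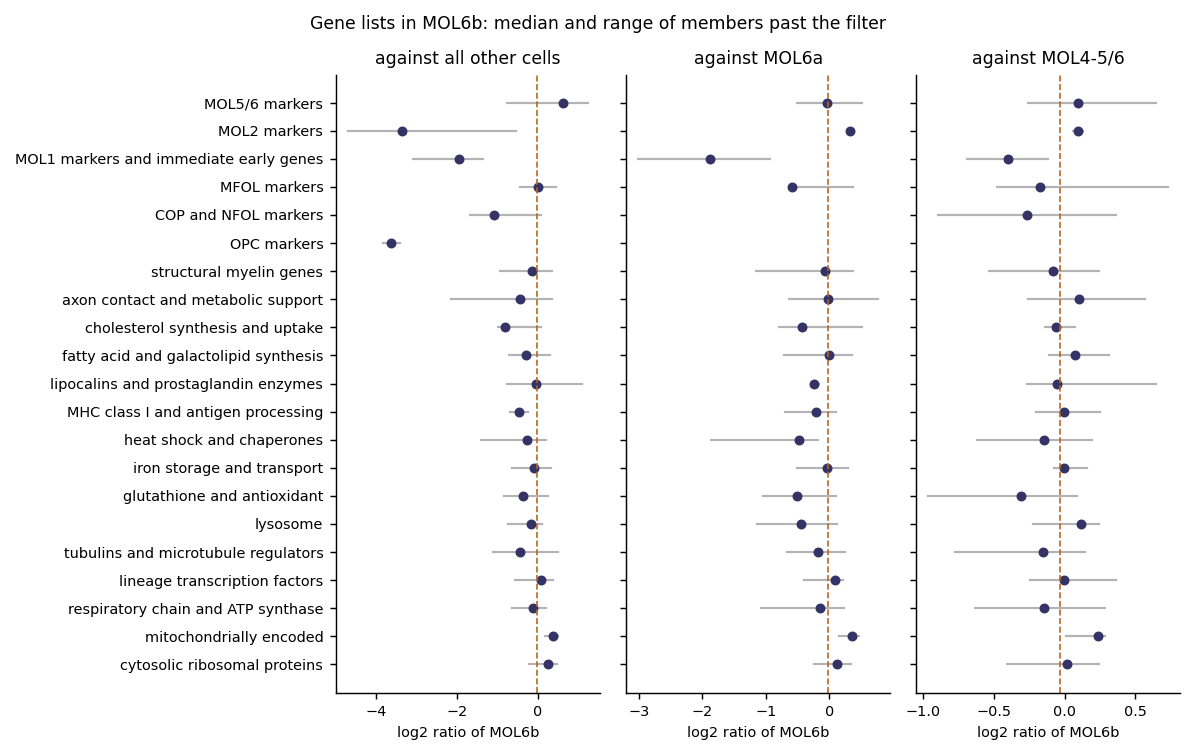
Median (point) and range (line) of the log2 ratio of MOL6b over all other cells, MOL6a and MOL4-5/6 for the members of 21 gene lists past the filter; the dashed line is the median of all genes, and a list with no member past the filter has no point. MOL5/6 markers, Ptgds among them, lie right of the line against all other cells (0.64) and mitochondrially encoded genes right of it in each panel, while the low positions of MOL2, OPC, COP/NFOL, immediate early, heat shock, cholesterol and axon support genes include members that passed the filter only through other labels, which sets their direction.

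TdTom+ and GFP+ MOL6b cells, of dorsal and ventral origin, had close transcript levels. Of 2847 genes, 43 were higher in TdTom+ cells (1.51%) and 37 lower (1.3%), and 92.1% of genes differed by less than 0.5 on the log2 scale. Called genes made up 2.81% in MOL6b, compared with 2.68% in MOL6a, 2.54% in MOL4-5/6 and 2.64% in MOL2b, whose libraries held similar numbers of cells. Among genes with high ratios in MOL6b, the log2 ratio of TdTom+ to GFP+ was -0.10 for Ptgds, -0.12 for Il33, -0.17 for Hcn2 and -0.22 for Pex5l, and it was larger for Nbas (-0.53), Cerk (-0.56) and Srgap1 (-0.62), none called. Atp5l, an ATP synthase subunit, was the highest in TdTom+ cells at 83.6 CPM against 29.1 CPM (74 and 12 UMIs, log2 ratio 1.49, 0.63 to 2.54), followed by Cops2 (1.07), Ppp1r37 (1.02), Slc39a7 (1.02) and Cds2 (0.99). Higher in GFP+ cells were Gm20515 (-1.48), Ebna1bp2 (-1.38), Cpe at 39.6 and 104 CPM (-1.38) and the glutamate transporter Slc1a2 at 33.9 and 80.01 CPM (-1.21, from 30 and 33 UMIs). Each of these genes was under 50 CPM in the library where it was lower, so the filter set its direction, as it did for 35 of the 80 called genes. Each had fewer than 100 UMIs in either library, and origin cannot be told apart from library and sort.

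Over 2958 genes, the MOL6b profile was nearest to MOL4-5/6, with Pearson's r across genes of 0.978 within the TdTom+ and 0.952 within the GFP+ library. MOL6a followed with 0.955 and 0.939, and MFOL1 with 0.943 and 0.929, while OPCs had 0.431 and 0.443. The MOL6b profiles of the libraries were at 0.974 with each other. Genes are not independent replicates, and within a library the labels share its preparation.

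Most MOL6b cells were nearest to their own label across libraries. The labels came from clustering both libraries together on these transcripts, so this match describes the label and is no independent check of it. When each cell was matched to the label profiles of the other library, 91.8% of TdTom+ MOL6b cells (270 of 294) and 89.7% of GFP+ MOL6b cells (122 of 136) were nearest to MOL6b. MOL4-5/6 came next, with 13 and 10 cells, and 1 and 0 cells were nearest to MOL6a. Of MOL4-5/6 cells, 49.6% of the TdTom+ and 21.4% of the GFP+ ones were nearest to MOL6b, and 32.5% and 61.2% were nearest to their own label. Of MOL6a cells 10.3% and 7.95% were nearest to MOL6b. With genes of at least 200 CPM alone, the share of TdTom+ MOL6b cells nearest to MOL6b was 69.4%, and 26.9% were nearest to MOL4-5/6, whereas the GFP+ share was 85.3%. In that setting 14.7% of TdTom+ and 21.4% of GFP+ MOL4-5/6 cells were nearest to MOL6b, and 81.3% and 65.3% were nearest to their own label. The label to which the largest share of TdTom+ MOL4-5/6 cells was nearest therefore differed between the settings. The split between MOL6b and MOL4-5/6 thus changed with the genes used, while few MOL6b cells were nearest to MOL6a in either setting.

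**Figure D5:**
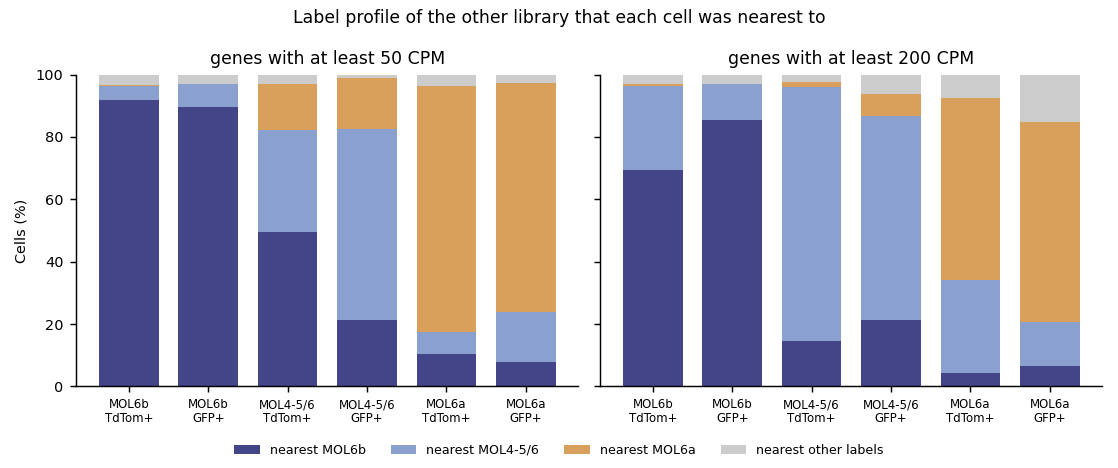
Share of cells (percent, stacked to 100) of MOL6b, MOL4-5/6 and MOL6a in each library by the label whose profile in the other library they were nearest to, with genes of at least 50 CPM on the left and of at least 200 CPM on the right. MOL6b cells are nearest to MOL6b in 91.8% and 89.7% of cases on the left and in 69.4% and 85.3% on the right, and the main second choice is MOL4-5/6. The labels came from both libraries clustered together, so the match is no independent check.

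Among MOL6b cells thinned to 2400 UMIs, most genes had a variance near their mean, as counting error alone gives. The median ratio of variance to mean was 1.03 over 1770 genes with a mean of at least 0.2 UMIs per cell, and 18 genes were above 1.5 in both libraries. After Malat1, a nuclear RNA (15.3), Ptgds had the highest ratio (13.6 in TdTom+ and 12.3 in GFP+ cells), ahead of the ferritin gene Fth1 (5.29), the selenium carrier Sepp1 (2.55), Apoe (2.29), Actb (2.17) and Wasl (2.12). These ratios grow with the depth kept, and at 1000 UMIs they were 7.41 for Malat1, 6.42 and 6.06 for Ptgds and 2.76 for Fth1, in the same order. The ratio of Actb, cytoplasmic actin, was 3.12 in the TdTom+ and 1.22 in the GFP+ cells. Apoe had the highest Pearson's r with Ptgds across cells (0.47 over 252 TdTom+ and 0.37 over 121 GFP+ cells), and Fth1 had the lowest (-0.38 and -0.40). Qdpr and Cryab, a small heat shock protein, had mean values of 0.25, Phlda1 0.23 and Hcn2 0.22 (0.30 and 0.15). On the negative side Anln had -0.28, Tppp3 -0.23 and Cpox, an enzyme of haem synthesis, -0.22. These values describe cells of the same pooled libraries at 1 fixed total, so a rise of abundant transcripts lowers the others.

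Markers of microglia, neurons and endothelium were near 0 in MOL6b. Of 8 microglial genes 6 had 0 UMIs and the list summed to 3 UMIs in the TdTom+ and 0 in the GFP+ library. The 5 neuronal genes had 1 and 0 UMIs and the 6 endothelial genes 4 and 1, with the defining genes Snap25, Cldn5 and Pecam1 at 0. Astrocyte genes summed to 173 and 201 CPM (153 and 83 UMIs over 8 genes), within the 48.5 to 1019 CPM of the other labels. Of these, Gja1 was at 0, Aqp4 had 2 and 0 UMIs, and the sum came mainly from Slc1a3 (97 and 32 UMIs) and Slc1a2 (30 and 33 UMIs). The log2 ratio of TdTom+ to GFP+ was -1.21 for Slc1a2 and 0.49 for Slc1a3, which was not called. The ependymal gene Foxj1 had 48 and 21 UMIs (54.3 and 50.9 CPM), with 0 to 109 CPM in the other labels, and haemoglobin Hba-a1 had 22 and 8 UMIs. Pericyte and choroid plexus genes were not analysed here, and of 7 leptomeningeal genes 1 was, Igfbp2 at 0 UMIs, so these types were not checked. In all, 17 of 430 MOL6b cells held 3 or more UMIs of such a list, and the libraries shared 1 cell barcode, in no MOL6b cell.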

How the data were processed

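The 2 corpus callosum samples were sequenced as 10x Genomics 3′ version 2 libraries. The submitters' processing notes name Cell Ranger 2.1.1 and mm10, and the paper's methods name STAR (its version and the annotation: not given in the sources used here). Next, the authors limited genes and mitochondrial UMIs per cell, integrated the libraries, clustered them and transferred labels. The matrix deposited by the authors holds a signal, each gene's fraction of the cell's total UMI count. Multiplied back, 100% of nonzero values lay within 0.01 of whole numbers. These recovered counts were used where counts had been planned, for 11733 genes (81 at 0 in all cells). UMIs removed by the authors equalled their control features in 94.0% of cells. Labels and libraries came from the deposited table of cells, whose other 34 columns were not used.

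UMIs were summed per label and library and given as CPM. Genes were compared where the mean over both sides was 50 CPM or more, with a pseudocount of 1 CPM. Intervals of ratios are exact, conditional on the summed counts, and shares have Clopper-Pearson intervals. Cells were thinned without replacement to 2400 UMIs (seed 1). For the nearest label, each cell was correlated with the 12 label profiles of the other library. Doublets were called with Scrublet, and none was removed. Named genes were Ptgds, the 15 highest and 10 lowest ratios to all other cells, the 8 highest and 8 lowest to MOL6a and to MOL4-5/6, the 5 highest and 5 lowest between libraries, up to 4 members of each of the gene lists with the largest ratios, all MOL5/6 and MOL2 markers, the 8 most variable genes, and the 5 genes at either end of the correlation with Ptgds. Kcnj10 and Cd63 were added after their values were seen. Some genes that the rule names are not reported here. The members and the 31 gene lists were chosen with earlier results of these data known. The computations were tested on simulated data. Alternatives were other filters, folds, pseudocounts, scalings, thinning depths, denominators and reference labels, each library alone, own clusters, and, chosen after seeing the data, leaving out cells with markers of other cell types. Scanpy 1.11.5, scipy 1.17.1, numpy 2.4.6, pandas 2.3.3, matplotlib 3.10.9 and igraph 0.11.9 were run under Python 3.11.15.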

Additional observations from a re-analysis of the deposited data

Results flagged for a closer look

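For 2 named genes the libraries pointed in opposite directions beyond the counting interval of each, and the difference between the libraries was not tested. Slc1a2, against all other cells, had a log2 ratio of -0.55 in TdTom+ MOL6b cells and 0.73 in GFP+ ones. Cops2, against MOL6a, had 0.56 and -0.96. Both were named because they differed between the libraries within MOL6b.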

How the results depend on the processing

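Ratios between labels were taken within each library and were so paired by library. The comparison of TdTom+ with GFP+ cells had no replicate, because each origin had only 1 library. The share of MOL6b was 18.1% and 17.2% (TdTom+, GFP+) with MOL cells as denominator, and 22.4% and 20.4% for the own Leiden cluster that held most MOL6b cells. That cluster was 1 of 11, and its 619 cells held 330 MOL6b, 142 MOL4-5/6 and 35 MOL6a cells. Called genes numbered 245 against all other cells, 333 against MOL6a, 108 against MOL4-5/6 and 80 between the libraries. Without a filter they were 1157, 853, 396 and 272, with 200 CPM 61, 70, 18 and 1, with a lower fold limit 735, 760, 342 and 143, and with a 2-fold limit 47, 50, 9 and 10. The filter and fold set these counts by construction. Against MOL4-5/6 the GFP+ library alone gave 187, and it called 124 genes higher than in all other cells and 116 higher than in MOL6a, where both libraries gave 51 and 66; the cause was not tested. Leaving out cells with 3 or more UMIs of another cell type, chosen after seeing the data, gave 238, 319, 104 and 79. With genes of at least 200 CPM, 69.4% of TdTom+ MOL6b cells were nearest to MOL6b. Median genes per cell without thinning were 1324 and 1352, and 5 genes had a variance over mean above 1.5 at 1000 UMIs. Of 1270 values of named genes under the alternatives, 1180 stayed within their interval, 88 moved and 2 reversed. The GFP+ library alone moved 38 of 143 values and other MOL labels as reference moved 17 of 66, with both reversals. Of the genes called against MOL4-5/6, 42 of 108 were also called in the TdTom+ library alone and 70 in the GFP+ library alone, and of the 80 called between libraries 36 were also called after thinning. With other MOL labels as reference Ptprz1 was 0.25 and Fyn 0.11, since OPC and COP/NFOL were then left out. Scrublet called 4 TdTom+ and 9 GFP+ cells and 0 in MOL6b.

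The data hold 1 library per origin of pooled mice, so spread between mice was not measured, and intervals cover counting error only. Genes near 50 CPM rest on few UMIs in MOL6b, and ratios between libraries rest on fewer still. MOL6b was defined by clustering the genes described, and its border with MOL4-5/6 is not sharp.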
